A study of Homo sapiens with 12 samples.

Results

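The 27 genes described here lie on the short arm of chromosome 1, in bands p31 to p32, and were listed because most of them were counted less in cells without hnRNP UL1 than in wild-type cells. Membership was set by gene symbol, within 55 to 65 Mb of chromosome 1 (GRCh38), out of 61163 genes in the count tables. The members were chosen by the measured differences between knockout and wild type in these same libraries. Those differences are therefore given as a description, with no test, and they support nothing.

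The study compared HEK293T cells, a transformed line from human embryonic kidney, with a HEK293T line in which HNRNPUL1 had been knocked out by CRISPR-Cas9 with guides to exons 2 and 3. These are named HEK WT and HEK UL1 KO. The sample titles name no other allele or agent. Whether HEK WT cells were also given Cas9 plasmids, and whether the knockout line is 1 clone, is not given in the sources used here. RNA was taken from isolated nucleoli (NO) and from the remaining cytoplasm and nucleoplasm (CN), with 3 libraries for each genotype and fraction, described by the submitters as biological triplicates. With 12 libraries from 2 lines, a difference between genotypes is a difference between these lines.

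hnRNP UL1 is a nuclear RNA-binding protein of the heterogeneous nuclear ribonucleoprotein family, known for roles in transcription, RNA processing and the response to DNA breaks. The genes of 1p31 to p32 do not form a pathway. They are neighbours on 1 chromosome arm, each with its own transcript and mostly with unrelated functions, among them signalling kinases, transcription factors, ubiquitin enzymes and enzymes of sugar metabolism. The genes are taken below by role.

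The libraries held between 37141666 and 104040073 counts each. HNRNPUL1 itself had 15.2, 21.5 and 9.28 CPM (counts scaled to a common library size with TMM factors within a fraction) in HEK WT NO and 4.08, 3.85 and 3.56 in HEK UL1 KO NO. In CN it had 17.7, 15.4 and 18 against 4.74, 4.79 and 4.86, so every library fitted the genotype in its label. These values do not check the fraction. Of the genes that HEK293 lines are known to express, VIM, KRT8, KRT18, NEFL, NEFM, INA and PAX2 were counted in all 12 libraries. The kidney and blood genes UMOD, AQP2, SLC12A1 and PTPRC had at most 0.472 CPM in any CN library. Their highest values in NO were 0.893, 0.446, 2.28 and 1.90 CPM. KRT8 had 1.54, 1.58 and 1.52 CPM in HEK WT NO and 0.510, 0.586 and 0.468 in HEK WT CN. By level, the expressed and the unexpected markers were thus not apart in NO. In NO, 1 library, HEK WT replicate 3, stood apart by its level on the weakly counted, unlisted genes of the window. It had 66.4 CPM in sum on them, against 32.5 to 43.2 CPM in the other NO libraries. Its TMM factor was 1.40, beside 0.690 and 0.622 in HEK WT NO replicates 1 and 2. In HEK UL1 KO NO the factors were 1.34, 1.09 and 1.15. By that factor, replicate 3 was the HEK WT NO library most like the knockout ones. The main NO results are given with it and without it.

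All 27 members had a lower mean in HEK UL1 KO than in HEK WT in NO, and 22 of 27 did in CN. Without HEK WT replicate 3, 23 of the 26 members fitted in NO were below 0, and FGGY, KANK4 and UBE2U were above it. The median log2 difference was -1.03 in NO over the 26 members that passed the filter on low counts, and -0.98 in CN over 25. Over all genes tested the medians were 0.00 and 0.04, and over protein-coding genes with at least 50 counts in HEK WT they were -0.27 and -0.17. In NO, the 3 knockout libraries lay below the 3 wild-type libraries for 18 members and overlapped them for 9. In CN they lay below for 22, above for 1 and overlapped for 4. The 22 include FOXD3, which had at most 5 counts in any CN library and did not pass the filter. Such a gap downwards was found for 9.17% of all genes tested in NO and 28.1% in CN. A gap upwards was found for 11.0% in NO and 24.7% in CN. In bulk RNA, fewer cells expressing a gene and less RNA of it per cell cannot be told apart.

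**Figure D1:**
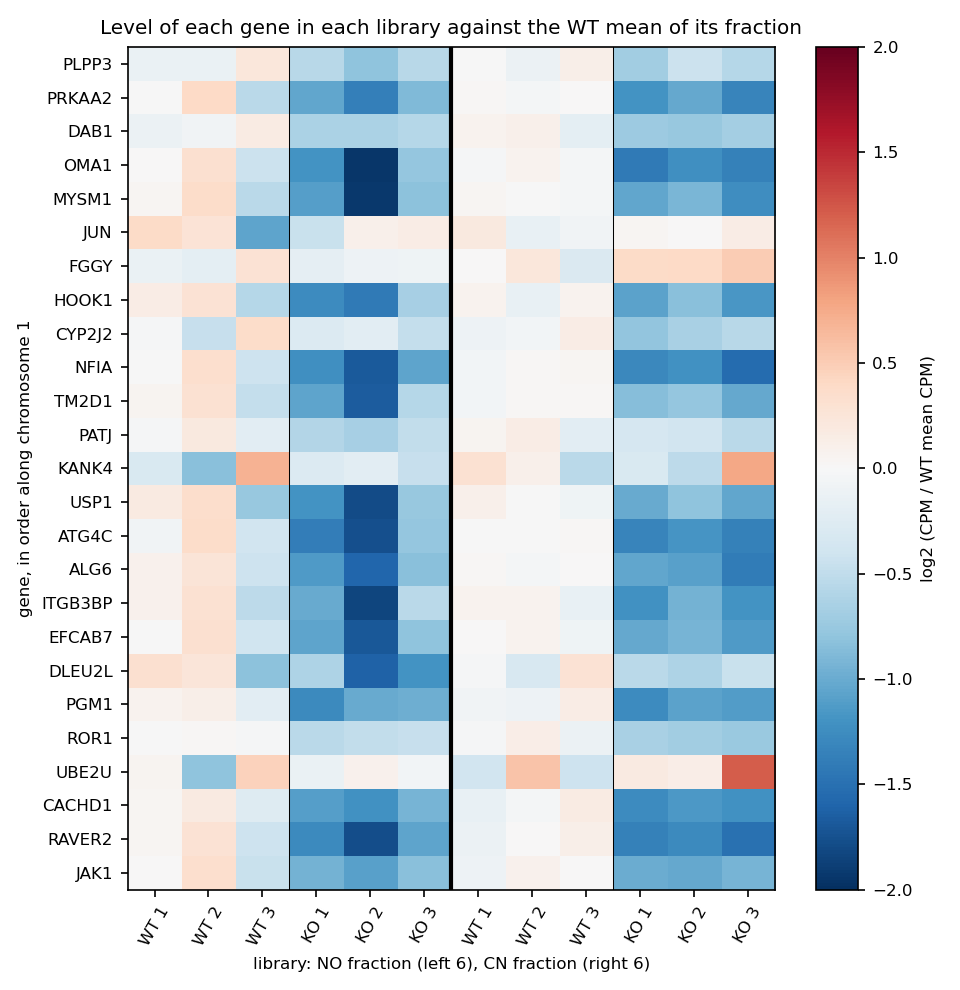
Each row is a member that passed the filter in both fractions, in order along chromosome 1, and each column a library. Colour gives log2 of the library's CPM over the HEK WT mean of the same fraction. The knockout columns are blue for most rows, while JUN, FGGY, KANK4 and UBE2U are near or above the wild-type level in CN.

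The summed level of the members was 447, 512 and 376 CPM in HEK WT NO and 238, 207 and 276 CPM in HEK UL1 KO NO. In CN it was 441, 451 and 435 CPM in HEK WT and 223, 236 and 213 CPM in HEK UL1 KO. No knockout library reached a wild-type one in either fraction, and the spread between wild-type libraries was wider in NO, where replicate 3 was lowest. Against the wild-type mean, the median member stood at -1.03, -1.29 and -0.72 on the log2 scale in the 3 HEK UL1 KO NO libraries and at -1.0, -0.84 and -1.04 in the CN ones. Replicate 3 of HEK WT NO stood at -0.40 on the same scale, which is the lowest of the 6 wild-type libraries.

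edgeR's quasi-likelihood test called 20 members lower and 1 higher in CN, where it called 22.3% of all genes tested lower and 15.6% higher (37.9% in all). In NO it called 1 member lower, RAVER2, and none higher, against 0.574% and 0.365% of all genes. There, 17 of 26 members were lower with an unadjusted edgeR p under 0.05, as were 3418 of 34836 genes tested. Among protein-coding genes with at least 50 counts in HEK WT, 1859 of 11388 were. Nothing is read from these counts, since the same contrast chose the members. The NO counts moved with the setting for the members and for all genes alike. Without HEK WT replicate 3, 17 members and 15.3% of all genes tested were called lower, and the members' median was -1.22 against 0.09 for all genes. Without HEK UL1 KO replicate 1 as well they were 16 members and 6.97% of all genes, with a median of -1.15, and with DESeq2 they were 14 members and 3.34% of all genes.

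The scaling moved the size of the difference. With total counts in place of TMM factors the members' median was -0.50 in NO and -0.78 in CN, with 22 of 26 and 21 of 25 members below 0, while the median over all genes went to 0.40 and 0.24. Relative to all genes the members' median was therefore -0.90 in NO and -1.02 in CN with total counts, and -1.04 and -1.02 with TMM factors. Over all genes called, the share that was lower in HEK UL1 KO went from 61.2% to 30.0% in NO and from 58.8% to 31.9% in CN.

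The genes that were lowest against wild type were spread over the segment and over functions. RAVER2, which encodes a ribonucleoprotein that works with the splicing regulator PTBP1 (chr1:64745075-64833232), had 16.8, 19.9 and 12.3 CPM in HEK WT NO and 6.76, 4.79 and 7.89 in HEK UL1 KO NO. In CN it had 19.6, 21.4 and 23 CPM against 8.38, 8.84 and 7.62. The groups did not overlap in either fraction, and the log2 difference was -1.33 ± 0.30 (SE) in NO, or -1.52 ± 0.26 without HEK WT replicate 3, and -1.37 ± 0.09 in CN. NFIA, a nuclear factor I transcription factor of glial and urinary tract development (chr1:61077227-61462788), was the most counted member in CN, with 78.7, 83.3 and 83.8 CPM in HEK WT and 33.4, 35.5 and 28.1 CPM in HEK UL1 KO. Its knockout level was 39.5% of the wild-type mean in CN and 40.6% in NO.

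Among the enzymes of protein turnover and organelle control, OMA1, the mitochondrial inner-membrane protease that cleaves OPA1 under stress (chr1:58480719-58546726), had 13.0, 13.9 and 12.9 CPM in HEK WT CN and 4.99, 5.68 and 5.19 in HEK UL1 KO CN. ATG4C, a cysteine protease that processes ATG8 proteins in autophagy (chr1:62784132-62865516), had 14.2, 14.3 and 14.6 CPM against 5.74, 6.38 and 5.62. Both genes kept about the same distance between groups, with log2 differences of -1.33 ± 0.08 and -1.28 ± 0.08 in CN and -1.22 ± 0.32 and -1.24 ± 0.32 in NO. USP1, which removes ubiquitin from FANCD2 and PCNA, had 36.1, 33.3 and 31.6 CPM in HEK WT CN and 16.8, 19.2 and 16.4 in HEK UL1 KO CN. In NO, replicate 3 of HEK WT had 18.6 CPM of USP1 and replicate 3 of HEK UL1 KO had 18.7, so the groups overlapped there. MYSM1, a histone H2A deubiquitinase, had 33.3, 32.2 and 31.5 CPM in HEK WT CN and 15.8, 17.2 and 13.6 in HEK UL1 KO CN. Its groups were apart, and it stood at 48.0% of wild type in CN and 43.0% in NO.

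Of the signalling genes, JAK1, the tyrosine kinase of interferon and interleukin-6 family receptors (chr1:64833229-65067746), had 25.4, 28.7 and 27.2 CPM in HEK WT CN and 13.6, 13.4 and 14.2 in HEK UL1 KO CN. PRKAA2, a catalytic subunit of the energy sensor AMPK (chr1:56645314-56715335), had 20.1, 19.4 and 19.9 CPM against 8.69, 9.71 and 7.93. Neither gene had an overlapping library, and the knockout means were 50.6% and 44.3% of wild type. ROR1, a receptor-like kinase for WNT5A, had 16.3, 18 and 15.2 CPM in HEK WT CN and 10.5, 10.1 and 9.87 in HEK UL1 KO CN, a smaller difference of -0.70 ± 0.08. DAB1, the adaptor of reelin signalling and by far the widest member at 1552 kb, had 46.6, 48 and 39.1 CPM in HEK WT CN and 26.8, 26.2 and 27.7 in HEK UL1 KO CN. It was at 60.4% of wild type in CN and 65.4% in NO. PLPP3, a phosphatase of lipid mediators at the lower end of the listed genes (chr1:56494761-56579563), had 3.62, 3.35 and 3.92 CPM against 2.24, 2.7 and 2.45. The groups of both genes were apart, and PLPP3 was at 67.9% in CN and 64.7% in NO.

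The metabolic genes differed among themselves. PGM1, which interconverts glucose 1-phosphate and glucose 6-phosphate, had 5.32, 5.19 and 6.18 CPM in HEK WT CN and 2.32, 2.64 and 2.56 in HEK UL1 KO CN. ALG6, the glucosyltransferase that adds the first glucose to the lipid-linked N-glycan precursor, had 11.3, 10.8 and 11.1 CPM against 5.37, 5.22 and 4.2. Both had separated groups, with knockout means at 45.1% and 44.6% of wild type. CYP2J2, an epoxygenase of arachidonic acid, was weakly counted and stood at 63.4% in CN, while its NO libraries overlapped (1.38, 1.02 and 1.82 CPM against 1.16, 1.22 and 1.01).

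Genes of the cytoskeleton, polarity and the centromere gave a similar range. ITGB3BP, the kinetochore protein CENP-R, had 26.3, 26.5 and 22.6 CPM in HEK WT CN and 10.8, 13.1 and 11.0 in HEK UL1 KO CN. HOOK1, a microtubule adaptor for dynein, had 15.6, 13.4 and 15.5 CPM against 7.08, 8.25 and 6.63. Neither gene overlapped, and HOOK1 was at 49.4% of wild type in CN and 47.5% in NO. PATJ, a scaffold of the Crumbs polarity complex, had the smallest difference among the members called lower, at -0.41 ± 0.10 in CN, with 17.2, 18.4 and 14.3 CPM in HEK WT and 13.2, 12.8 and 11.5 in HEK UL1 KO. CACHD1, which is related to calcium-channel alpha-2-delta subunits, had 25.7, 27.8 and 32 CPM in HEK WT CN and 12, 12.8 and 12.3 in HEK UL1 KO CN. TM2D1, a membrane protein with a TM2 domain, had 10.4, 11 and 11 CPM against 5.98, 6.31 and 5.31. EFCAB7, a ciliary protein of the Hedgehog pathway, had 6.1, 6.41 and 5.76 CPM against 2.99, 3.18 and 2.78. The groups of these 3 genes did not overlap, and the knockout means were 43.4%, 54.3% and 49% of wild type.

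DLEU2L, a noncoding pseudogene inside EFCAB7, was the only member in CN with separated groups and a mean of at least 50 counts in HEK WT that edgeR did not call, at -0.53 ± 0.23 and 0.700, 0.574 and 0.872 CPM against 0.492, 0.466 and 0.523. It shares 342 exonic bases with EFCAB7 on the same strand. In all, 10 members overlap an exon of another annotated gene, and whether counting used the strand is not given in the sources used here. The longest other same-strand overlap between members, of DAB1 and OMA1, is 257 bases. FOXD3, a neural crest transcription factor, had at most 8 counts in any library and passed the filter in neither fraction. L1TD1, an RNA-binding protein of pluripotent cells derived from a LINE-1 element, had 3 to 9 counts in the CN libraries and passed only in NO.

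**Figure D2:**
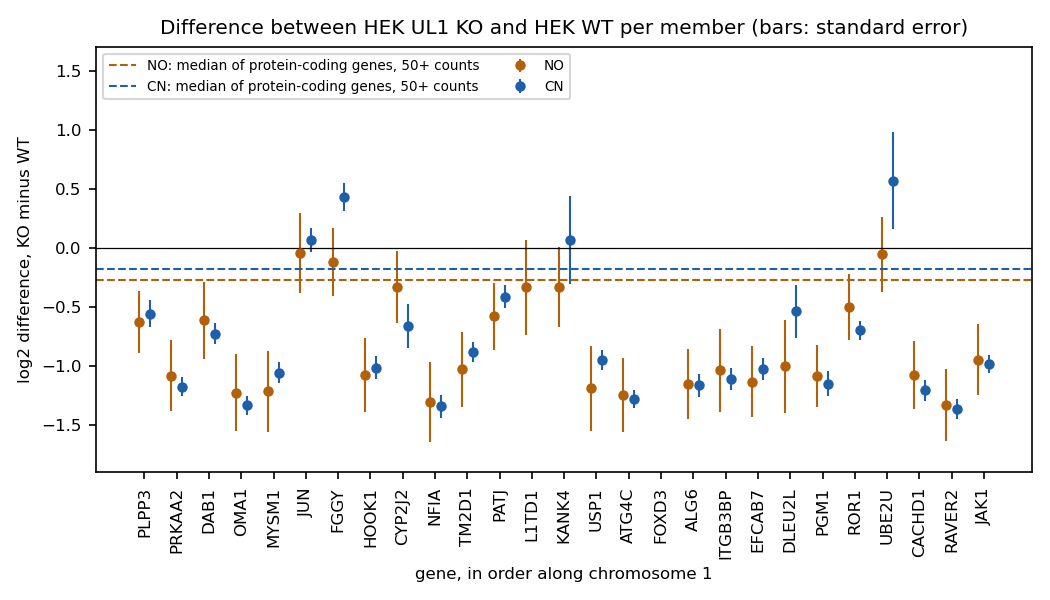
Points give the log2 difference, HEK UL1 KO minus HEK WT, for each member in NO and in CN, with bars for the standard error, and dashed lines give the median of protein-coding genes with at least 50 counts in HEK WT. Most members lie near -1 in both fractions, and the NO standard errors are wider; FOXD3 has no value and L1TD1 has one in NO alone.

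JUN, FGGY, KANK4, UBE2U and L1TD1 did not have a lower mean in the knockout in CN, and of these only JUN and FGGY had a mean of at least 50 counts there. JUN, an intronless immediate-early gene that encodes a subunit of the AP-1 transcription factor (chr1:58780791-58784047), had 6.67, 5.27 and 5.57 CPM in HEK WT CN and 6.03, 5.88 and 6.44 in HEK UL1 KO CN. In NO it had 7.18, 6.64 and 2.63 CPM against 4.02, 5.85 and 6.07. The groups overlapped in both fractions, and the log2 differences were 0.07 ± 0.10 in CN and -0.04 ± 0.34 in NO. Replicate 3 of HEK WT NO was far below the other 2, and without it the NO difference was -0.40 ± 0.24. MYSM1, the listed gene nearest to it on the lower side, was at 48.0% and 43.0% of wild type in the 2 fractions.

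FGGY, a carbohydrate kinase of the FGGY family that phosphorylates D-ribulose (chr1:59296378-59762730), was the only member with all knockout libraries above the wild-type ones in CN. Such a gap upwards was found for 24.7% of all genes tested in CN. FGGY had 6.67, 7.76 and 5.4 CPM in HEK WT and 8.59, 8.73 and 9.39 in HEK UL1 KO, a log2 difference of 0.43 ± 0.12. In NO it had 17.4, 16.6 and 23.3 CPM against 16.9, 17.8 and 18.1, with overlapping groups and a log2 difference of -0.12 ± 0.29, or 0.03 ± 0.24 without HEK WT replicate 3. With total counts in place of TMM factors edgeR called no member higher in CN. KANK4, a cytoskeletal scaffold of the ankyrin-repeat KANK family, and UBE2U, a ubiquitin-conjugating enzyme, had 22 to 44 and 13 to 30 counts in the CN libraries, and their differences of 0.07 ± 0.37 and 0.57 ± 0.41 were within the spread of libraries. FGGY and HOOK1 are adjacent in the listed order, and HOOK1 was lower by 1 log2 unit where FGGY was not.

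The RefSeq promoter windows (GRCh38.p14, 250 bases before to 50 after the start) of JUN, of FGGY and of RAVER2 are shown because the first 2 genes did not share the fall and RAVER2 had the deepest one in CN. Capitals mark letters found in a search on both strands for the TATA box (TATAAA), the CCAAT box, the GC box (letters GGGCGG), the AP-1 site (letters TGACTCA) and the longer site of the ATF and CREB family (letters TGANNTCA). The windows are chr1:58783998-58784297 on the minus strand, chr1:59296844-59297143 on the plus strand and chr1:64744825-64745124 on the plus strand.
JUN: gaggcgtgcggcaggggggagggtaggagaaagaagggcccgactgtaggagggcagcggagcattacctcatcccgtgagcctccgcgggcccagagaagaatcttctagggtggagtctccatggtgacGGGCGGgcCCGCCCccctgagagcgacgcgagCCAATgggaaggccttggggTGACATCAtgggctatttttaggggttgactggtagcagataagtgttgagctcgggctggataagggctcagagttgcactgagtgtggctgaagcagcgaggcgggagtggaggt
FGGY: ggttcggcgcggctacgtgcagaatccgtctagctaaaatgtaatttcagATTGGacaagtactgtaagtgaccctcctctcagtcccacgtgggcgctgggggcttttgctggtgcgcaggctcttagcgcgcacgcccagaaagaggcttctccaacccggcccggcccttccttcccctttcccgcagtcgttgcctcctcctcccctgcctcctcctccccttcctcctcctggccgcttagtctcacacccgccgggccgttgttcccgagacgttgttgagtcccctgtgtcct
RAVER2: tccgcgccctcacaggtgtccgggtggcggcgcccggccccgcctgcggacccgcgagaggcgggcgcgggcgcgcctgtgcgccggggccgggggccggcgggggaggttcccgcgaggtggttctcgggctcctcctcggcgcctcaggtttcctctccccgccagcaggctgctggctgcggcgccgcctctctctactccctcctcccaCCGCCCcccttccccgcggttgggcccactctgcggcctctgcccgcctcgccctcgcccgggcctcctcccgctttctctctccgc

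The JUN window held GGGCGG letters from position -119 relative to the start and, read on the opposite strand as CCGCCC, from -111. It also held CCAAT from -87 and TGANNTCA from -67. The FGGY window held CCAAT from -200, read on the opposite strand as ATTGG, and the RAVER2 window held GGGCGG from -37, read as CCGCCC. Promoter windows were matched by symbol for 25 of the 27 members, with the first window listed where RefSeq gives several, as for FGGY. Of these, 9 held CCAAT and 15 held GGGCGG, against 35.7% and 44.6% of the 27305 windows searched. TGACTCA was found in 2 members (DAB1 and OMA1, which share 1 window) and in 4.92% of all windows, and TGANNTCA, which cannot start at the same base, in 2 members (JUN and FOXD3) and 11.8% of all windows. TATAAA was in none of the 25 and in 12% of all windows. A match in letters is a description of the window and says nothing of binding.

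The window also held 105 unlisted genes, of which 10 had a mean of at least 50 counts in HEK WT CN. Among them USP24, a ubiquitin protease just inside the lower limit of 55 Mb, lay at -1.24 ± 0.07 in CN and at -1.32 ± 0.34 in NO. In CN, 6 of these 10 were called lower and none higher. Of all 36 unlisted genes tested in CN, 15 were below 0, and their median was 0.03. Of these 36, 6 were called lower (16.7%), against 22.3% of all genes tested. Just inside the upper limit of 65 Mb lay the noncoding gene LINC01359 at -1.07 in CN, and just outside it AK4 at -1.17 in CN and -1.06 in NO. The values on the 2 sides of the upper limit were thus alike.

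The profile of chromosome 1 did not end at the limits of the list. In bins of 5 Mb over protein-coding genes with at least 50 counts in HEK WT, members included, the median CN difference was -0.33 from 50 to 55 Mb, -0.87 from 55 to 60 Mb and -1.13 from 60 to 65 Mb, where 14 of 14 genes were below 0. Above the list it was -0.88 from 65 to 70 Mb, -0.50 from 70 to 75 Mb and -0.93 from 75 to 80 Mb. The bin from 60 to 65 Mb was the lowest of 47 in both fractions, but bins far from the list were also low, at -1.02 from 245 to 250 Mb, -0.81 from 185 to 190 Mb and -0.76 from 30 to 35 Mb in CN. In NO the median was -0.50 from 55 to 60 Mb and -1.08 from 60 to 65 Mb, beside -1.05 from 245 to 250 Mb. Over chromosome 1 outside 45 to 75 Mb it was -0.31 in CN and -0.40 in NO, or -0.61 in NO without HEK WT replicate 3. Without that library the median from 60 to 65 Mb in NO was -1.25. These medians describe the contrast that chose the members and were not tested.

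**Figure D3:**
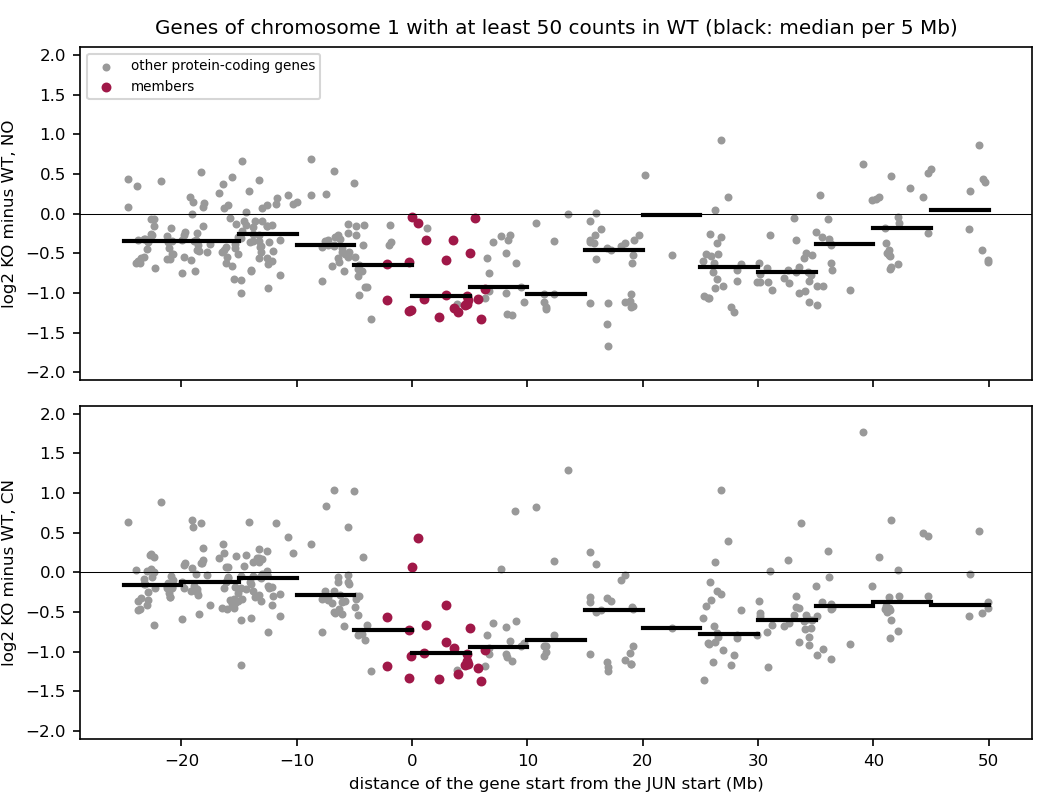
Each point is a protein-coding gene of chromosome 1 with at least 50 counts in HEK WT, placed by the distance of its start from that of JUN in Mb, with the log2 difference, HEK UL1 KO minus HEK WT, on the vertical axis, NO above and CN below. Members are red and black bars are medians per 5 Mb; the medians stay below 0 over the whole stretch drawn in CN, and 2 members stand above 0 there (FGGY and JUN).

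Transcripts per length ordered the members differently from CPM. In HEK WT CN, per kb of the canonical GENCODE 44 transcript, ITGB3BP was highest at 26.2 CPM per kb, followed by TM2D1 at 11.2, USP1 at 9.34 and NFIA at 8.88, and L1TD1 and FOXD3 were lowest at 0.0116 and 0.0189. Of the genes that did not share the fall, FGGY stood at 3.53 and JUN at 1.79 CPM per kb, so neither was at an end of this order. The width of the gene and the knockout difference had a Spearman rho of 0.084 over 26 members in NO and -0.042 over 25 in CN, which is given as a description. The 5 widest members, DAB1, FGGY, PATJ, ROR1 and NFIA, ranged from -1.34 to 0.43 in CN.

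The comparison of NO with CN within a genotype did not choose the members and was tested with edgeR, with CPM scaled within the genotype. In HEK WT, 13 of 26 members were lower and 4 were higher in NO, where 20.9% and 31.9% of all genes tested were (52.8% in all); of protein-coding genes with at least 50 counts, 42.3% were lower. In HEK UL1 KO, 17 of 26 were lower and 4 higher, against 35.6% and 40.7% of all genes (76.3% in all) and 72.5% lower of those protein-coding genes. The median log2 difference of the members was -0.56 in HEK WT and -0.71 in HEK UL1 KO, and of the protein-coding genes -0.44 and -0.72. As shares of the members tested, 50% and 65.4% were lower, near the shares of those protein-coding genes. The calls moved with the scaling: with total counts 1 member was lower and 4 were higher in HEK WT, and 0 were lower and 8 higher in HEK UL1 KO. The members' median with total counts was -0.25 in HEK WT and 0.04 in HEK UL1 KO. Over all genes, the share of calls that were lower in NO went from 39.6% to 8.90% in HEK WT and from 46.7% to 4.34% in HEK UL1 KO under total counts. Without HEK WT replicate 3, 13 of 26 members were lower and 4 higher in HEK WT, with a median of -0.35, equal to that of those protein-coding genes. Relative to the median of all genes, the members' median was -0.58 in HEK WT and -0.74 in HEK UL1 KO with TMM factors and -0.62 and -0.75 with total counts.

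PRKAA2 had the lowest NO level against CN. In HEK WT it had 9.37, 11.4 and 7.76 CPM in NO and 20.7, 19.8 and 21.3 in CN, and the difference was -1.11 ± 0.17 (edgeR adjusted p = 0.00387). In HEK UL1 KO the difference was -1.13 ± 0.17 (edgeR adjusted p = 0.000175), with 5.76, 4.60 and 6.37 CPM in NO and 12.2, 13.9 and 10.7 in CN. All NO libraries were below all CN ones in both genotypes. RAVER2, OMA1 and NFIA followed at -0.87, -0.86 and -0.85 in HEK WT, with edgeR adjusted p of 0.00415, 0.00408 and 0.00529. ROR1 and PLPP3 lay at -0.18 and 0.12 in HEK WT, within the spread of the libraries, with edgeR adjusted p of 0.354 and 0.663.

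FGGY was higher in NO than in CN. In HEK WT it had 12.7, 11.2 and 20.3 CPM in NO and 6.85, 7.91 and 5.76 in CN, a difference of 1.11 ± 0.24 (edgeR adjusted p = 0.00546), or 0.80 ± 0.16 without replicate 3 (edgeR adjusted p = 0.00591). In HEK UL1 KO it had 15.5, 16.4 and 16.5 CPM against 12, 12.5 and 12.7, a difference of 0.38 ± 0.14 (edgeR adjusted p = 0.0242). The NO and CN libraries did not overlap in either genotype, and the difference between the 2 genotypes was not tested. JUN went the other way, at -0.60 ± 0.27 in HEK WT (edgeR adjusted p = 0.0884) and -0.82 ± 0.17 in HEK UL1 KO (edgeR adjusted p = 0.00124). In HEK WT NO, replicate 3 had 2.29 CPM of JUN, beside 5.24 and 4.47 in replicates 1 and 2. Without replicate 3 the JUN difference in HEK WT was -0.32 ± 0.14 (edgeR adjusted p = 0.0966).

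KANK4 and UBE2U were also higher in NO, at 2.24 ± 0.47 and 2.54 ± 0.47 in HEK WT (edgeR adjusted p of 0.00536 and 0.00424) and at 1.64 ± 0.27 and 1.73 ± 0.26 in HEK UL1 KO. UBE2U had 1.27, 0.644 and 2.01 CPM in HEK WT NO and 0.171, 0.329 and 0.175 in HEK WT CN. The fourth member called higher was L1TD1, with 13, 11 and 30 counts in HEK WT NO and 5, 3 and 3 in HEK WT CN. It entered the test through its NO counts alone, so its call was favoured by the filter and supports nothing. HEK WT replicate 3 had the highest NO level of all 3 genes among the HEK WT libraries, and without it KANK4 was at 1.51 ± 0.33 and UBE2U at 2.08 ± 0.43 (edgeR adjusted p of 0.00814 and 0.00697). Of the 10 unlisted genes of the window with at least 50 counts in HEK WT CN, 4 were called higher in NO in HEK WT, against 31.9% of all genes.

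**Figure D4:**
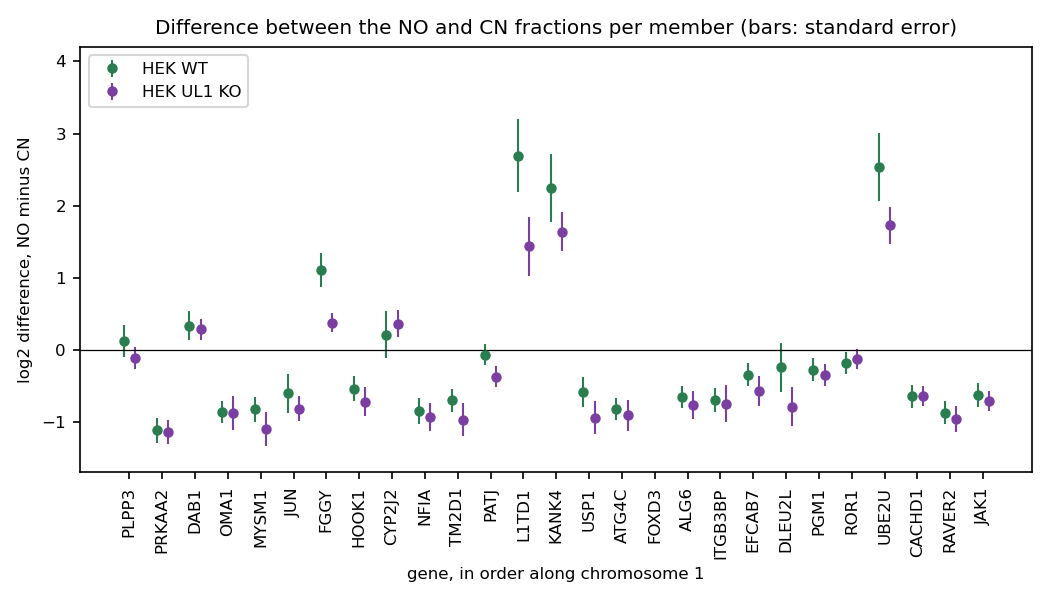
Points give the log2 difference between NO and CN for each member in HEK WT and in HEK UL1 KO, with CPM scaled by TMM factors within the genotype and bars for the standard error. Most members lie below 0 or near it, while L1TD1, KANK4 and UBE2U lie above 1 in both genotypes; with total counts the points of HEK UL1 KO move up, to a median of 0.04.

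Paralogs of the members on other segments, which the rule did not use, were compared between genotypes in the same fits. Of 34 tested in CN, 8 were lower and 4 higher (22.3% and 15.6% of all genes), with a median of -0.12. PRKAA1, the other catalytic subunit of AMPK, was at 0.15 ± 0.11 (edgeR adjusted p = 0.299) where PRKAA2 was at -1.17, and JAK2 was at -0.15 ± 0.09 (edgeR adjusted p = 0.209) where JAK1 was at -0.98. PLPP1 fell by 0.88 and HOOK3 fell by 0.71, with edgeR adjusted p of 0.000121 and 6.68e-05, and DAB2 rose by 1.33 with an edgeR adjusted p of 0.000142, opposite to DAB1. In NO, edgeR called 0 of 35 paralogs and 0 of 57 partners, while DESeq2 called 2 of these genes, and edgeR without HEK WT replicate 3 called 28.

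Of 56 partner genes tested in CN, 22 were lower and 6 higher, with a median of -0.17. Among protein-coding genes, 37.9% of those with at least 50 counts in HEK WT and 62% of those with at least 500 were called lower, so these counts are near the background. For USP1 the activator WDR48 fell by 0.86 (edgeR adjusted p = 2.14e-05), 1 of 4 lower of 5 tested. For JAK1, 6 of 12 receptors and STAT factors were lower, among them IL6ST, which fell by 0.86 (edgeR adjusted p = 2.76e-05). Around JUN, 4 of 8 AP-1 genes were lower and 3 higher; FOS rose by 1.10 from 0.213 to 0.463 CPM (edgeR adjusted p = 0.0172) and the JUN kinase MAPK8 fell by 0.74 (edgeR adjusted p = 3.27e-05). Of the OMA1 group, OPA1 fell by 0.57 and PHB2 rose by 0.38 (edgeR adjusted p of 0.000149 and 0.00692), and of the centromere proteins that work with ITGB3BP, CENPU rose by 0.94 and CENPP fell by 0.69 (edgeR adjusted p of 1.2e-05 and 8.07e-05). With all 12 libraries in 1 fit the paralogs and partners called in CN were 16 in place of 40, and with total counts 17.

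**Figure D5:**
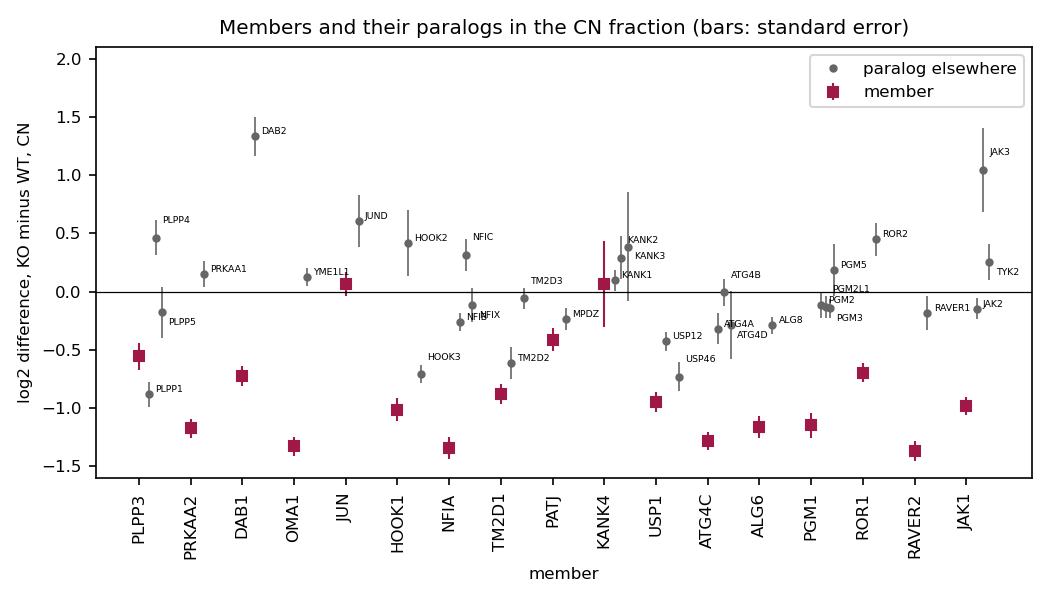
Squares give the log2 difference, HEK UL1 KO minus HEK WT, in CN for each member with a tested paralog, and small points give the paralogs, with bars for the standard error. The square lies below most of its paralogs for most members; JUN and KANK4 lie near 0.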

How the data were processed

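The deposited files hold whole-number counts of reads per gene, 1 table for NO and 1 for CN, made by the authors from 75-base single reads of total RNA libraries prepared without rRNA depletion. Per the submitters' processing notes, reads were trimmed with cutadapt 3.7, checked with FastQC 0.11.4, aligned to GRCh38 with STAR 2.7.8 and counted with featureCounts; the annotation, the strand setting and the treatment of multi-mapped reads are not given in the sources used here. Reads that match several places may thus be absent from, or shared between, similar genes.

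Counts of 61163 genes were filtered with filterByExpr (minimum count 10, minimum total 15), scaled by TMM and tested with edgeR 4.0.16 in R 4.3.3 (glmQLFit and glmQLFTest), with Benjamini-Hochberg adjustment over all genes tested and a threshold of 0.05. The 2 genotypes were compared in NO and in CN separately, and the 2 fractions in each genotype. DESeq2 1.42.0, which the authors used, other scalings and filters, all libraries in 1 fit, a replicate block and leaving out each library were the alternatives, and those on the related genes, and leaving out 1 NO library of each genotype together, were chosen after seeing the data. The scripts were tested on simulated data for the genotypes in NO, the genotypes in CN and the fractions in HEK WT, in that order. There edgeR recovered 193, 200 and 194 of 200 changed genes, and 5.85%, 7.83% and 8.06% of its calls were false. With DESeq2, 11.1%, 11.1% and 17.2% of calls were false. All these shares are above the threshold of 0.05. Levels are CPM, counts scaled to a common library size with TMM factors, and levels between genes are per kb of the GENCODE 44 canonical transcript. Positions were matched by symbol to RefSeq (GRCh38.p14). Library totals ran from 37141666 to 104040073, and counting precision is limiting only for members with few counts.

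The members and gene lists were chosen with earlier results of these data known. Library values are given in CN for members with a mean of at least 50 counts in HEK WT, apart from CYP2J2, and for some in NO; other values are shares of wild type, fitted differences or counts. Among unlisted genes of the window, protein-coding ones with at least 50 counts were eligible to be named, and for the genes nearest to the limits the same minimum was used. Some genes that these rules select are not reported here. The RAVER2 promoter was added after its values were seen. p-values measure the spread between libraries of 2 lines.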

Additional observations from a re-analysis of the deposited data

Results flagged for a closer look

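FGGY is given a closer look because the 3 HEK UL1 KO libraries were all below the HEK WT mean in NO and all above it in CN, with log2 differences of -0.12 in NO and 0.43 in CN. The difference between the fractions was not tested, since both contrasts chose the members. No fall in NO is shown: the groups overlapped there, with 17.4, 16.6 and 23.3 CPM in HEK WT, and without HEK WT replicate 3 the NO difference was 0.03 ± 0.24.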

How the results depend on the processing

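The members' median stayed below 0 in every setting run in both fractions; with total counts it was -0.50 in NO and -0.78 in CN, and leaving out 1 library gave -1.22 to -0.80 and -1.01 to -0.93. The number of members called lower in CN was 15 to 21 over the settings, while 6.35% to 22.4% of all genes tested were called lower. In NO, edgeR called 1 of 26 lower, beside 0.574% of all genes tested, and this count was not stable. It was 14 with all 12 libraries in 1 fit (2.99% of all genes), 14 with DESeq2 (3.34%) and 12 with no filter (1.49%). It was 16 without 1 library of each genotype (6.97%), 0 with at least 10 counts in every library (0.28%) and 0 with total counts (0.00861%). Leaving out 1 library gave 0 to 17, 17 being without HEK WT replicate 3 (15.3%). The cause was not tested. Members differing between NO and CN were 17 in HEK WT, with 5 under total counts and 15 to 19 on leaving out 1 library, and 21 in HEK UL1 KO, with 10 when at least 10 counts were required in every library, 8 under total counts and 17 to 21 on leaving out 1. Related genes called in CN were 40, with 16 in 1 fit of all libraries, 17 under total counts and 30 to 40 on leaving out 1. Related genes called in NO were 0, with 6 in that fit, 8 without 1 library of each genotype, 2 with DESeq2, 3 with no filter and 0 to 28 on leaving out 1.

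The replicate numbers showed no pairing of HEK WT with HEK UL1 KO libraries. The mean correlation of deviations between those of the same number was -0.33 in NO and -0.13 in CN. Between NO and CN libraries of the same number it was -0.30 in HEK WT and -0.21 in HEK UL1 KO. In each case 0 of 3 numbers correlated best with their own. With deviations taken over 3 libraries, 1 unlike library can set such values, so a pairing is not excluded. With a replicate block edgeR called 0 members lower in NO and 20 in CN, beside 0.342% and 20% of all genes tested. Without the block it called 1 and 20 members lower, beside 0.574% and 22.3%.

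Over all genes, the calls between genotypes in NO were 327, with 10 under total counts, 1190 with no filter, 143 with at least 10 counts in every library, 1082 with DESeq2 and 1745 in 1 fit of all libraries, and 9133 without HEK WT replicate 3. In CN they were 10324, with 5430 under total counts and 4215 in that fit. Between NO and CN they were 15494 in HEK WT, with 7011 under total counts, 8759 with at least 10 counts in every library, 9577 with the block and 24943 in that fit, and 26287 in HEK UL1 KO, with 13159 with at least 10 counts in every library. Low counts limit FOXD3, L1TD1, UBE2U and KANK4.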
